A study of Mus musculus with 6 samples.

Results

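The transcripts described here are those of the 6 genes of the platelet-derived growth factor (PDGF) family: the ligand genes Pdgfa, Pdgfb, Pdgfc and Pdgfd and the receptor genes Pdgfra and Pdgfrb. Every probe named for one of them was taken, 11 of 45281 probes on the array and 6 of 19057 gene symbols. They were measured in fetal mouse testes (embryonic day 14.5) from crosses of mixed B6/CD1 origin. Overexpressors had the genotype Amh-cre;RosaNICD/+ and their littermate controls RosaNICD/+. The dams were heterozygous for Tg(AMH-cre)1Flor and the sires homozygous for the floxed Gt(Rosa)26Sortm1(Notch1)Dam/J allele. Both groups therefore carried 1 copy of the conditional NOTCH1 allele, and the overexpressors alone carried Cre under the Amh promoter, which is active in Sertoli cells. An effect of the Cre transgene and one of active NOTCH1 cannot be told apart. A sample was the pooled testis pair of 1 fetus, with the mesonephros removed, and each of 3 dams gave 1 overexpressor and 1 control.

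PDGF ligands are secreted dimers that pair up receptor tyrosine kinases on neighbouring cells. The A and C chains act mainly through the alpha receptor, the D chain through the beta receptor, and the B chain through both. In the fetal mouse testis Sertoli cells are a known source of PDGF-A, cells of the interstitium carry the alpha receptor, and mice without that receptor have malformed testis cords and few fetal Leydig cells. In blood vessels, endothelial PDGF-B acts on the beta receptor of pericytes.

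Between 19459 and 20285 probes per array were above background, meaning a detection p-value under 0.05 against the negative controls of that array. All 7 Sertoli markers that were measured, including Sox9, Amh and Dhh, and all 6 fetal Leydig markers were above background on at least 3 arrays. Values below are background-corrected, quantile-normalized log2 intensities unless called raw. Of 19889 probes tested with limma, 113 differed between the groups at a Benjamini-Hochberg adjusted p under 0.05, which is 0.568% of them. A probe's brightness depends on its sequence, so levels are not compared between genes as amounts of RNA. Summed marker intensities and shares of them, given further below, describe probe signal alone.

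Of the 11 PDGF probes, 5 were above background on all 6 arrays, 1 each for Pdgfa, Pdgfb, Pdgfc, Pdgfra and Pdgfrb, and these were tested. Another 5 were above background on 0 arrays. The remaining one, a second Pdgfra probe, was above background in overexpressor 2 alone. Pdgfd, which encodes a ligand secreted in latent form and freed by proteolysis, had 2 probes, and neither passed on any array. Its brighter probe read 105, 96.5 and 104 raw units in overexpressors 1 to 3, against 103, 98.8 and 97.2 in controls 1 to 3. Each lay under the lowest signal above background on its own array, which was 107 to 128 over the 6 arrays, so Pdgfd was not detectable in either group at this sensitivity.

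**Figure D1:**
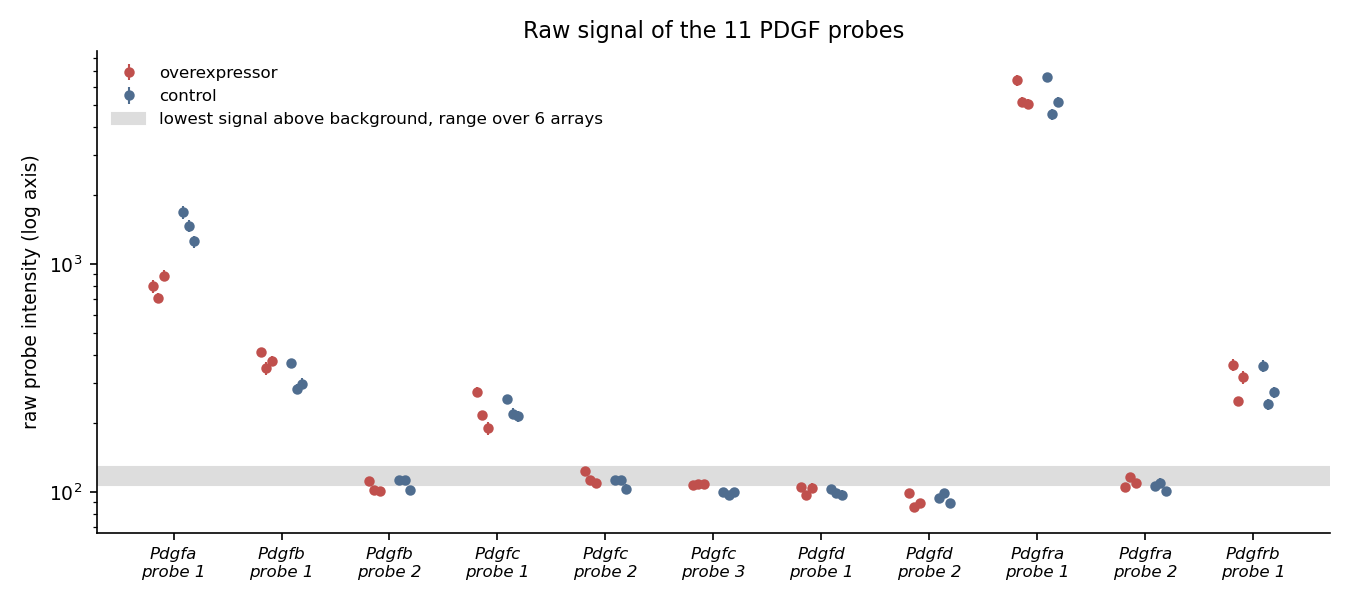
Raw intensity of the 11 PDGF probes on a log axis, with 1 point per array (overexpressors red and left, controls blue and right), error bars giving the standard error over beads, and a grey band for the lowest signal above background, 107 to 128. The probes of Pdgfd and the dimmer probes of Pdgfb, Pdgfc and Pdgfra lie at or below the band, and the Pdgfa probe shows 3 overexpressors below 3 controls.

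Pdgfa was the 1 member called lower, in the fit without a litter term. The Pdgfa gene lies on chromosome 5 and had 1 probe, ILMN_2424721. Its raw intensity was 798, 709 and 889 in overexpressors 1 to 3, against 1688, 1475 and 1256 in controls 1 to 3. After normalization its log2 intensity was 9.20, 9.29 and 9.78 in the overexpressors, against 10.53, 10.49 and 10.44 in the controls. Every overexpressor lay below every control, and the overexpressor of dam 3 came nearest to the controls. The controls lay close together, at 10.49 ± 0.05, while the overexpressors averaged 9.43 ± 0.31 (SD, n = 3 each). The 3 littermate differences, overexpressor minus control, were -1.33, -1.19 and -0.66 for dams 1 to 3.

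In the fit without a litter term, Pdgfa fell by 1.06 ± 0.17 (SE) on the log2 scale, to 0.479 of the control level (95% interval of the log2 fold change -1.45 to -0.67, limma adjusted p = 0.0433). It was the 1 call among the 5 PDGF probes. Among all tested probes 0.161% were called lower, and Pdgfa was the 23rd of these 32 by p-value. Groups that do not overlap, with the overexpressors below, occurred in 7.01% of all tested probes. Each raw value is a mean over 20 to 49 beads with a standard error of 4.69 to 6.54% of the signal, which covers reading error on 1 array and not the spread between fetuses. Testes were measured whole, so fewer cells of a type and less RNA per cell cannot be told apart. Adding the dam as a block left the difference as it was, but the adjusted p became 0.0548, so that 0 of the 5 PDGF probes were called, while 0.322% of all probes were called lower in that fit. The call was also lost without overexpressor 1 (-0.95, adjusted p = 0.186), overexpressor 2 (-0.99, 0.128), control 1 (-1.04, 0.193), control 2 (-1.06, 0.150) or control 3 (-1.08, 0.125), and it held without overexpressor 3 (-1.24, 0.0164).

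**Figure D2:**
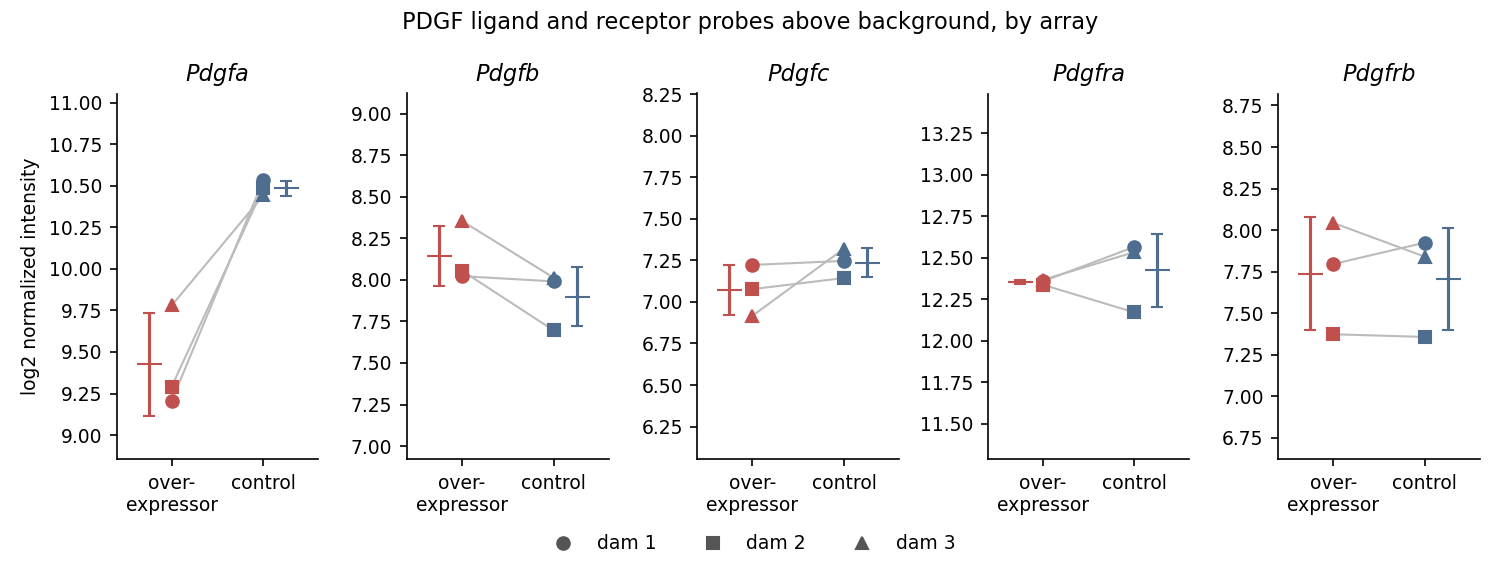
Log2 normalized intensity of the 5 PDGF probes above background, overexpressors left and controls right in each panel, with lines joining littermates, symbols for dams and bars for the group mean ± SD (n = 3 each). All panels span the same height in log2 units. Pdgfa is lower in 3 of 3 overexpressors, while the lines of the other genes are shallower.

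The DNA just upstream of Pdgfa is shown because Pdgfa is the 1 member called in the fit without a litter term, a call lost with the dam as a block. RefSeq (build GRCm38.p6) gives 2 transcription starts for it among those used here, both on the minus strand. For each the 250 bases before the start are printed, with capitals marking 2 motifs on either strand: TGGGAA, core letters bound by RBPJ, the DNA-binding partner of the NOTCH intracellular domain, and GGGCGG, the GC box bound by Sp1-type factors.
Pdgfa start 1, chr5:138994282-138994531: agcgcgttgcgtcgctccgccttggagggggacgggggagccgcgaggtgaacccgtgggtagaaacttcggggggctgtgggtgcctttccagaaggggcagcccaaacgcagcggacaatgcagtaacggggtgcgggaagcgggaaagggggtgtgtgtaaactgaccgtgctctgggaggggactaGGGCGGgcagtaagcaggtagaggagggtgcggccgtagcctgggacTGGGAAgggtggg
Pdgfa start 2, chr5:138994945-138995194: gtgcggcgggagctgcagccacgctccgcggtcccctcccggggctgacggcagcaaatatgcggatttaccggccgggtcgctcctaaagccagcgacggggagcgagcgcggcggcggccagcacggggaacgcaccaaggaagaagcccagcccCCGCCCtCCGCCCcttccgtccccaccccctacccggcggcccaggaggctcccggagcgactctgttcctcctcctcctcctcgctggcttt

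The first stretch is 66.4% G and C and the second 72.4%. The first holds TGGGAA 1 time, beginning 13 bases before the start, and the second 0 times. The same letters occur within 250 bases before 21.6% of all 32851 starts, so they are common. The GC box occurs 1 time in the first stretch and 2 times in the second, against 32.7% of all starts with at least 1. Neither stretch holds the E-box CACGTG or the N-box CACNAG, letters that HES and HEY repressors can bind, or the EGR letters GCGNGGGCG, on either strand. CACGTG is found before 6.02% of all starts, CACNAG before 36.7% and GCGNGGGCG, which can overlap a GC box, before 4.7%. A match is a description of letters and does not show that a factor binds there. Promoters of 4 of the 6 members were found, and among the other 3 genes TGGGAA occurred 1 time before Pdgfd and 0 times before Pdgfc and Pdgfra.

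Pdgfb, on chromosome 15, encodes the ligand that endothelial cells use to recruit pericytes. Its log2 intensity was 8.02, 8.06 and 8.35 in overexpressors 1 to 3, against 7.99, 7.70 and 8.01 in controls 1 to 3. The groups did not overlap, but overexpressor 1 and control 3 were almost level. Non-overlap in either direction occurred in 14.6% of all tested probes, and 2 of the 5 PDGF probes, Pdgfa and Pdgfb, showed it. The log2 fold change was 0.24 ± 0.16, with a 95% interval of -0.11 to 0.60 (limma adjusted p = 0.685). It was higher in 3 of 3 dams, by 0.03, 0.36 and 0.34. The second Pdgfb probe stayed at background on all 6 arrays.

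Pdgfc, on chromosome 3, encodes a latent ligand of the alpha receptor. Its brightest probe had log2 intensities of 7.22, 7.08 and 6.92 in overexpressors 1 to 3, against 7.25, 7.14 and 7.32 in controls 1 to 3. The groups overlapped, since overexpressor 1 lay above control 2. The overexpressor from dam 3 was the lowest of the 6, and that dam gave the littermate difference of -0.40, while dams 1 and 2 gave -0.02 and -0.07. The log2 fold change was -0.17 ± 0.14 (95% interval -0.48 to 0.15, limma adjusted p = 0.782). The other 2 Pdgfc probes were above background on 0 arrays.

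The receptor transcripts did not pass the test. Pdgfra, on chromosome 5, encodes the alpha receptor through which PDGF-A acts. Its log2 intensity was 12.36, 12.34 and 12.37 in overexpressors 1 to 3, against 12.57, 12.17 and 12.53 in controls 1 to 3. The overexpressors fell inside the range of the controls and were much closer to each other, with an SD of 0.01 against 0.22. The log2 fold change was -0.07 ± 0.15 (limma adjusted p = 0.927), and its 95% interval of -0.40 to 0.27 does not reach a change as large as that of Pdgfa.

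Pdgfrb, on chromosome 18, encodes the beta receptor of pericytes and other mural cells. Its log2 intensity was 7.80, 7.37 and 8.04 in overexpressors 1 to 3, against 7.92, 7.36 and 7.84 in controls 1 to 3. Littermates resembled each other: both fetuses of dam 2 were low, at 7.37 and 7.36. The log2 fold change was 0.03 ± 0.22 (95% interval -0.47 to 0.53, limma adjusted p = 0.979). Adding the dam as a block narrowed the interval to -0.27 to 0.33.

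**Figure D3:**
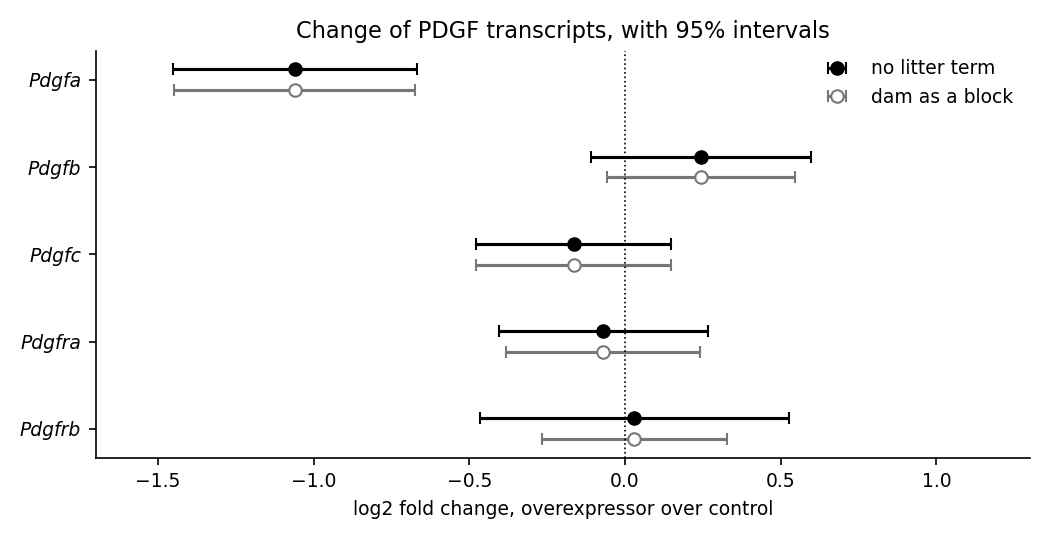
Log2 fold change, overexpressor over control, of the 5 tested PDGF probes with 95% intervals from limma without a litter term (filled) and with the dam as a block (open), 3 samples per group. The Pdgfa interval, -1.45 to -0.67, lies apart from 0, and those of Pdgfb, Pdgfc, Pdgfra and Pdgfrb include 0.

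The change of Pdgfa was set against that of each other tested member within the same arrays, as a description, since Pdgfa was singled out for its fall. The log2 fold change of Pdgfa minus that of Pdgfb was -1.31, and the differences were -0.90 from Pdgfc, -0.99 from Pdgfra and -1.09 from Pdgfrb. In all 3 dams and all 4 comparisons Pdgfa was the lower one, from -1.55 in dam 2 against Pdgfb to -0.26 in dam 3 against Pdgfc. The 4 differences share the values of Pdgfa and are not independent, and no test of them is given.

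Around the ligands and receptors, 5 lists of pathway genes held 86 genes, of which 53 were tested with 1 probe each. Of these 1 rose, 0 fell and 52 did not pass, against 0.555% of all 10999 tested genes called higher and 0.173% called lower. The remaining genes of the lists were under the detection filter or were not analysed here. Below, Src and the 2 genes of smallest unadjusted p in each pathway list are named by rule, and other pathway and marker genes were chosen after their values were seen.

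The riser was Src, which encodes a cytoplasmic tyrosine kinase recruited to activated PDGF receptors and to many other receptors. Its log2 intensity was 8.54, 8.44 and 8.67 in overexpressors 1 to 3, against 7.74, 7.73 and 7.63 in controls 1 to 3. All 3 overexpressors lay well above all 3 controls. Src rose by 0.85 ± 0.13 (95% interval 0.55 to 1.14, limma adjusted p = 0.0344), higher in 3 of 3 dams. Of its other 2 probes, 1 was above background on 1 array and 1 on 0 arrays, so a single probe carries this value. The call was lost when the dam was a block (adjusted p = 0.0501) and without overexpressor 1, 2 or 3 (0.160, 0.0705 and 0.0953) or control 1, 2 or 3 (0.146, 0.132 and 0.125), with log2 fold changes from 0.79 to 0.90.

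Of 19 receptor effectors tested, 18 besides Src did not pass, and the list's median log2 fold change was 0.01, against 0.00 over all genes (-0.0032). Pik3cb, a catalytic subunit of phosphoinositide 3-kinase, stood at 0.46 ± 0.15 (adjusted p = 0.356), and the authors' table gave 0.31. The adaptor or phosphatase genes Shc1 (-0.06 ± 0.13), Ptpn11 (-0.05 ± 0.13) and Grb2 (0.15 ± 0.15) and the transcription factor gene Stat3 (0.01 ± 0.14) did not pass. Other probes of Ptpn11 gave -0.13 and -0.32, and other probes of Stat3 gave 0.23 and 0.05.

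Among 10 genes of ligand processing and binding, 0 rose and 0 fell, with a median of -0.01. Plat, which encodes the tissue plasminogen activator that can free PDGF-C from its latent form, was the nearest to the threshold. Its log2 intensity was 10.02, 9.71 and 9.94 in overexpressors 1 to 3, against 9.12, 9.16 and 8.94 in controls 1 to 3. The groups did not overlap, as in 14.6% of all tested probes when either direction is counted. The log2 fold change of Plat was 0.82 ± 0.14 (limma adjusted p = 0.0541). It passed with no background correction (0.73, adjusted p = 0.0111), in the authors' processed table (0.73, 0.0121) and under 5 more of the 16 alternatives. It did not pass with the dam as a block (adjusted p = 0.0674) or with any array left out (0.0769 to 0.231). Other Plat probes were above background on 1 and 0 arrays, so a single probe carries this value. The convertase gene Pcsk6 stood at 0.52 ± 0.24 (adjusted p = 0.557) and at 0.30 without overexpressor 3. Furin, another convertase gene, stood at -0.0027 ± 0.13, with a second probe at 0.25 ± 0.16, and the coreceptor gene Nrp1 at -0.21 ± 0.14.

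Of 6 genes that restrain receptor signalling 0 passed, with a median of 0.09. The phosphatase gene Ptpn1 stood at 0.33 ± 0.12 (adjusted p = 0.424) and Dusp6, a feedback phosphatase of the ERK pathway, at -0.37 ± 0.16 (adjusted p = 0.510), with a second Dusp6 probe, also above background on all 6 arrays, at -0.11 ± 0.13. Growth factor response genes, which PDGF and many other stimuli induce in cultured cells, also held 0 calls among 10. Of them 8 had a negative log2 fold change and 2 a positive one, with a median of -0.19, where 50.7% of all tested genes had a negative one. Klf4 (-0.47 ± 0.14, adjusted p = 0.306) and Ier3 (-0.50 ± 0.17, adjusted p = 0.386) had the smallest p-values, and neither overlapped between groups. Non-overlap with the overexpressors below occurred in 7.01% of all tested probes. Klf4 stood at -0.25 with no background correction and at -0.27 in the authors' processed table. Egr1, an immediate-early gene, stood at -0.51 ± 0.20 (adjusted p = 0.457) and Fos at -0.18 ± 0.16.

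The related growth factors and receptors, among them the VEGF ligands and the receptors of the KIT and CSF1 branch, gave 0 calls among 8 with a median of -0.04. Kit, a receptor kinase of the same class as the PDGF receptors, had a log2 intensity of 10.31, 10.72 and 10.19 in overexpressors 1 to 3, against 9.55, 9.48 and 9.99 in controls 1 to 3. Its log2 fold change was 0.73 ± 0.19 (adjusted p = 0.249), and that of its ligand gene Kitl was 0.37 ± 0.24 (adjusted p = 0.682). Kitl was near background and its value moved to 0.13 without control 1, 0.13 with no background correction, 0.19 with an offset of 50 and 0.10 in the authors' processed table. Vegfa (0.05 ± 0.16), Vegfb (-0.06 ± 0.14) and Flt1 (-0.02 ± 0.14) stood near 0.

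**Figure D4:**
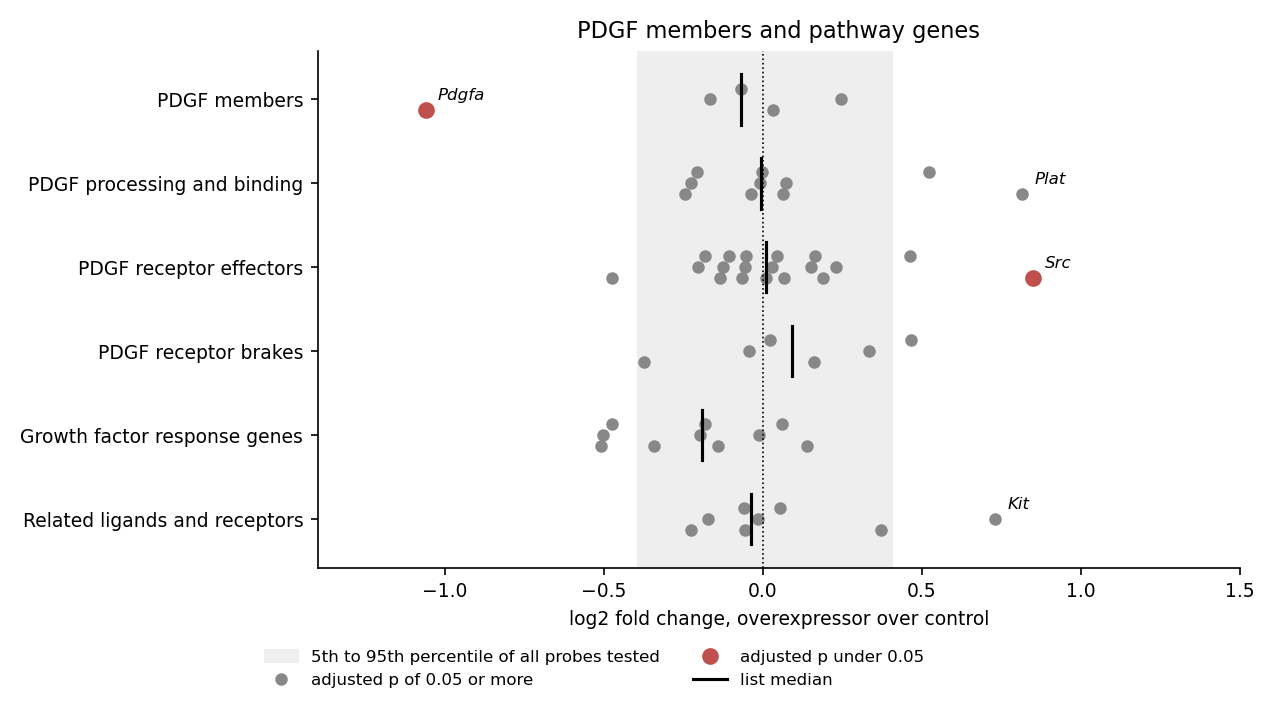
Log2 fold change, overexpressor over control, of each tested gene in the PDGF family and in 5 pathway lists, with list medians as black bars and red points for an adjusted p under 0.05. The grey band holds the 5th to 95th percentile of all tested probes, -0.39 to 0.41. Pdgfa lies left of it and Src right of it. Uncalled genes outside it are Plat, Kit, Pcsk6, Cblb and Pik3cb on the right and Egr1, Ier3, Slc9a3r1 and Klf4 on the left.

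Markers of the cells that make or receive PDGF were read on the same arrays. Over all 10999 tested genes 0.727% were called in either direction, so 0 calls in a short marker list say little. Of 7 Sertoli markers 0 passed, and their summed normalized intensity ranged from 6096 to 8762.5 in overexpressors and from 6653 to 8993 in controls. Such sums are set by the brightest probes, here Sox9 with 61.1 to 73.5% of the sum, so they say little of dim members such as Amh. Amh, a Sertoli hormone gene, had a log2 intensity of 6.771, 6.418 and 8.003 in overexpressors 1 to 3, against 8.364, 7.948 and 8.612 in controls 1 to 3. The groups overlapped. Amh was lower in 3 of 3 dams (-1.24 ± 0.38, limma adjusted p = 0.320). Sox9, a Sertoli transcription factor gene, stood at 0.15 ± 0.18 (second probe 0.03 ± 0.18) and Dhh, a hedgehog ligand gene, at -0.31 ± 0.21. The part of Sertoli cell number or state in the fall of Pdgfa was not tested.

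Germ cells also lie in the cords, and all 5 of their tested markers had a negative log2 fold change, as did 50.7% of all tested genes, with a median of -0.24. Their summed intensity was 5048 to 8559 in overexpressors and 7351 to 11716 in controls, ranges that overlap. Dnd1, a germ cell RNA-binding protein gene, had a log2 intensity of 9.44, 10.18 and 10.02 in overexpressors 1 to 3, against 10.72, 11.36 and 10.74 in controls 1 to 3. Dnd1 stood at -1.06 ± 0.24 (limma adjusted p = 0.167) and was called lower when the dam was a block (adjusted p = 0.0445). In that fit 0.322% of all probes were called lower. Dnd1 had the largest fall of the list. Dppa3 stood at -0.78 ± 0.24, Ddx4 at -0.24 ± 0.28, Pou5f1 at -0.16 ± 0.30 and Dazl at -0.05 ± 0.26. The part of germ cells in the fall of Pdgfa was not tested.

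Of 7 interstitial markers 0 passed, with a summed intensity of 17899 to 19300 in overexpressors and 17082 to 18053 in controls. Dcn made up 35.5 to 48.2% of that sum. The smallest p-values were those of Dcn (0.30 ± 0.14, other tested probes 0.12 and 0.32) and Col1a1 (-0.25 ± 0.14). In both the groups did not overlap, in opposite directions, as in 14.6% of all tested probes when either direction is counted. Nr2f2 (0.33 ± 0.20) and Tcf21 (-0.11 ± 0.15) did not pass either. Of 6 fetal Leydig markers 0 passed, with 31844 to 38470 in overexpressors and 35697 to 38266 in controls, of which Cyp17a1 made up 65.8 to 71.1%. Cyp17a1, of androgen synthesis, stood at -0.08 ± 0.13 and Star, which brings cholesterol into mitochondria, at -0.30 ± 0.21. Cyp11a1 stood at 0.21 ± 0.17, with other probes at 0.09 and -0.36. The Leydig list held 3 positive and 3 negative values, with a median of 0.01. Of 9 peritubular and pericyte markers 0 passed, with 15632 to 16370 in overexpressors and 16519 to 18203 in controls, of which Acta2, a smooth muscle actin gene, made up 93 to 94.3%. The smallest p among them was that of Mcam, a surface molecule of mural and endothelial cells (-0.52 ± 0.13, adjusted p = 0.224), whose other 2 probes gave -0.28 ± 0.19 and -0.17 ± 0.17. This list held 3 positive and 6 negative values, from -0.52 to 0.45, with a median of -0.03. Of 7 endothelial markers 0 passed, with a median of -0.11. Mesonephros and duct markers, which could come with adjoining tissue, had a summed intensity of 1939 to 2305 in overexpressors and 2540 to 2702 in controls, with 0 of 4 called and Pax2 and Emx2 under the detection filter. The epithelial cadherin gene Cdh1 stood at -0.93 ± 0.17 (limma adjusted p = 0.0764) and Lhx1 at -1.38 ± 0.31 (adjusted p = 0.160), and in neither did the groups overlap. Among all tested probes 7.01% had such groups, with the overexpressors below. A second Cdh1 probe, above background on 3 of 6 arrays, went the other way, at 0.22 ± 0.25. A second Lhx1 probe stood at -1.28 ± 0.39. The other 2 tested markers did not pass, with Hoxd10, which made up 70.4 to 85.1% of the sum, at -0.05 ± 0.13 and Pax8 at -0.03 ± 0.28. Pax8 was near background, passing on 3 of 6 arrays. The part of adjoining tissue in the fall of Pdgfa was not tested.

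The 2 genes whose log2 intensities followed each member most closely over the 6 arrays, out of 9357 genes above background on all of them, are given as a description, since with 6 arrays that share the group difference close matches are common. For Pdgfa they were Rassf1 (Pearson r = 0.996) and Pmaip1 (r = 0.994), and 36 genes exceeded 0.95. Pmaip1, a pro-apoptotic gene of the BCL2 family, fell by 1.37 ± 0.17 (limma adjusted p = 0.0124), while Rassf1 stood at -0.36 ± 0.12 (adjusted p = 0.398), with other Rassf1 probes at 0.36 and -0.03. For Pdgfra they were Smo, the hedgehog signal transducer gene (r = 0.980), and Vwa5a (r = 0.978). For Pdgfrb they were Cst3 (r = 0.997) and Idnk (r = 0.989), for Pdgfb Thsd7b (r = 0.993) and Cdc42se1 (r = 0.989), and for Pdgfc Zmat1 (r = 0.987) and Zfp157 (r = 0.975).

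**Figure D5:**
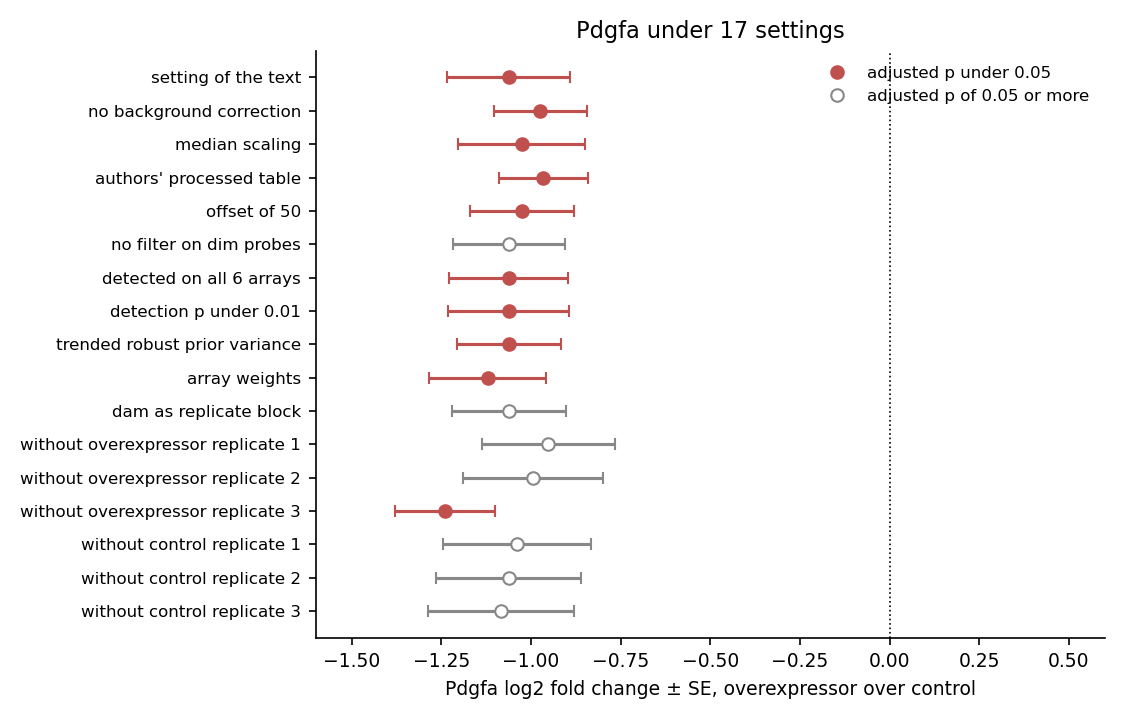
Log2 fold change ± SE of Pdgfa, overexpressor over control, in the setting of the text and under 16 alternatives, red and filled where the adjusted p was under 0.05. The values lie between -1.24 and -0.95 throughout, and 7 alternatives lost the call.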

How the data were processed

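Biotin-labelled RNA of 6 fetal testis pairs was read on Illumina BeadChip arrays, 1 per pair, and GenomeStudio 2010.3 was used, per the submitters' processing notes. The deposited table gives, per the file headers, each probe's mean bead intensity on a linear scale, the standard error of that intensity, the count of beads (median 41 to 42 per array) and a detection p-value. The intensities were neither normalized nor background-subtracted. The authors' processed table holds intensity values equal to these multiplied by 1 factor per array, from 0.855 to 1.145 (column medians 105.0, 110.9 and 113.3 in overexpressors 1 to 3, and 108.1, 112.0 and 117.5 in controls 1 to 3). It is linear and not centred per probe. The number of arrays limits the precision.

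Signals were corrected and quantile-normalized with neqc (offset 16) in limma 3.58.1 under R 4.3.3. Probes with a detection p under 0.05 on at least 3 arrays were tested, two-sided, with limma's moderated test and Benjamini-Hochberg adjustment over all 19889. The brightest probe stood for a gene (10999 genes). Fold changes are overexpressor over control. Of 45281 probes, 34885 carried 1 symbol in the platform annotation, 18 several and 10378 none, and 34807 were updated through Entrez identifiers to RefSeq (GRCm38.p6), which also gave the chromosomes and promoter sequences. The files name no build. The fit was tested on simulated data, but no outcome is given here, so this lends no weight to any call above.

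Equal dam numbers in the labels mark littermates, and these deviated together from their group means (correlations 0.252, 0.426 and 0.304, other pairs -0.279 to -0.0138). The litter is left out of the fit of the text, and a dam block is an alternative. Named by rule are all PDGF probes, pathway list members past the threshold and the 2 genes per pathway list with the smallest unadjusted p. Also by rule are the 2 genes most correlated with each member, leaving out clone-named and predicted genes. Other pathway and marker genes were chosen after their values were seen. Members and lists were chosen with earlier results of these data known. The alternatives concern background correction, scaling, offset, the authors' table, the detection filter, prior variance, array weights, the litter and each array left out.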

Additional observations from a re-analysis of the deposited data

How the results depend on the processing

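Pdgfa kept its direction under 16 of 16 alternatives, with log2 fold changes from -1.24 to -0.95, but passed the threshold under 9. The 7 lost calls were with dim probes kept (-1.06, adjusted p = 0.106, where all 45281 probes share the adjustment), with the dam as a replicate block (-1.06, adjusted p = 0.0548) and without any array other than overexpressor 3 (leave-one-out range -1.24 to -0.95, adjusted p from 0.0164 to 0.193). The count of PDGF probes called was therefore 0 in those 7, and 0 to 1 with 1 array left out. The pathway lists held 1 call, 0 with the replicate block or with any array left out, and 2 with no background correction, the authors' table, an offset of 50, detection on all 6 arrays, a detection p under 0.01, a trended robust prior variance or array weights. The block changed no other call among the 5 PDGF probes and the 53 pathway genes. Over all probes 113 were called, 175 with an offset of 50, 67 with no filter, 210 with the trended prior, and 32 to 101 with 1 array left out. The signs of the receptors, whose fold changes are near 0, were not stable: Pdgfrb stood at -0.013 with array weights and from -0.14 to 0.21 with 1 array left out (-0.12 without overexpressor 3, -0.14 without control 2), and Pdgfra from -0.20 to 0.0014 (0.0014 without control 1). Pdgfb and Pdgfc kept their direction under all 16 and passed under 0, with Pdgfb from 0.14 to 0.30 (0.14 without overexpressor 3 or control 2) and Pdgfc from -0.24 to -0.087 (-0.087 without overexpressor 3, -0.10 with no background correction). The cause of these changes was not tested. The headers name no BeadChip, so a fit with the chip as a block was not run.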
